A study of Mus musculus with 9 samples.

Results

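The genes described here encode histones, the proteins around which DNA is wound into nucleosomes. They are the 80 rows of a table of 16876 mouse genes whose symbols begin with H1f, H2a, H2b, H3c, H3f, H4c or Macroh2a. They were split by symbol into 9 linker genes (H1f), 54 replication-dependent core genes (H2ac, H2bc, H3c or H4c followed by a number), 15 variants (every other symbol) and 2 pseudogenes. RNA came from natural killer (NK) cells cultured from the bone marrow of C57BL/6 mice. Marrow from the femurs grew for 4 days with 50 ng/mL IL-15, 30 ng/mL SCF, 10 ng/mL Flt3L and 1 ng/mL IL-7. It then matured for a week with IL-2 at 20 ng/mL and IL-15 at 50 ng/mL. All 9 libraries share that culture and its cytokines. The untreated group (Ctrl) has 3 libraries, the TGFb group has 3 libraries from cells given TGF-β1 (5 ng/mL, 3 h), and the SIS3_TGFb group has 3 from cells given SIS3 (10 µM, 3 h) and then TGF-β1 (5 ng/mL, 3 h). SIS3 is an inhibitor of Smad3, the protein that carries the TGF-β signal to the nucleus. A group with SIS3 alone or with solvent alone was not analysed here. Nothing in the labels ties the libraries of a group to separate animals or cultures, so each p-value measures the spread between these libraries, which may be technical.

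Core histones (H2A, H2B, H3 and H4) form the nucleosome, and linker histones (H1) sit where DNA enters and leaves it. Replication-dependent histone genes lie in clusters and are copied mainly in S phase, and their mRNAs end in a conserved stem-loop in place of a poly-A tail. Variants such as H3.3 and H2A.Z are made throughout the cell cycle from genes outside the clusters, and their mRNAs carry a poly-A tail. The libraries were poly-A selected. For replication-dependent genes they therefore count transcripts that carry a tail or were carried over. The share of the stem-looped transcripts that was captured was not tested.

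The stem-loop is shown first because it bears on how replication-dependent mRNAs end, though its letters do not fully separate the classes. Its letters (GG, 2 free bases, CTTTT, 1 free base, AG, 2 free bases and CC, with no gap) were searched in the sense strand of the GENCODE M21 transcripts (GRCm38). They occur in 72 of 21901 protein-coding genes (0.329%), and 44 of those 72 are members. Among core genes, 37 of 54 hold the letters, against 4 of 9 linker genes and 3 of 14 annotated variants (H2ax, H2aw and H2bu2). The most common form, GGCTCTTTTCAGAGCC, is in 26 members. Capitals mark the stem-loop in 6 members that the results turn on, with the bases on either side in lower case.

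H1f2: aaaaGGCTCTTTTCAGAGCCaccact

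H1f3: aaacGGCTCTTTTCAGAGCCacccac

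H2ac23: aaaaGGCTCTTTTCAGAGCCatccac

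H2ac18: aaaaGGCTCTTTTCAGAGCCacccac

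H2ax: caaaGGCCCTTTTAAGGGCCaccacc

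H4c9: taaaGGCCCTTTTTAGGGCCaccaca

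The annotated transcript runs only 31 bases past the loop in H2ac23 and 35 bases in H2ac18, and neither holds the poly-A signal AATAAA there. In H1f2 the only annotated transcript runs 840 bases past the loop and holds AATAAA there, so it has both the loop letters and a poly-A signal. Of the 37 core genes with the letters, 22 end within 100 bases of the loop and 15 run further. The letters were not found in the annotated transcripts of H1f0, H1f10, H3f3a, H3f3b, H2az1, H2az2, Macroh2a1, H2bc4 or H2bc21. The annotated transcripts of H4c12 (312 bases) and H2bc18 (381 bases) also lack them, and a missing match says only that the letters are not in the annotated bases.

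Promoters of 3 members are shown because H1f2 and H3f3b rose together in the SIS3_TGFb libraries and H3f3a, whose protein is the same as that of H3f3b, did not pass the test. Each run is the 250 bases before the transcript start in RefSeq (GRCm38.p6), with capitals for 4 motifs on either strand. They are the CCAAT box, the TATAAA form of the TATA box, the H1 box of linker genes (AAACACA), and the core of the CREB site (TGACG). The motifs do not overlap in these runs. H1f2 lies at chr13:23738557-23738806 (plus strand), H3f3b at chr11:116024505-116024754 (minus strand) and H3f3a at chr1:180813606-180813855 (minus strand).

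H1f2: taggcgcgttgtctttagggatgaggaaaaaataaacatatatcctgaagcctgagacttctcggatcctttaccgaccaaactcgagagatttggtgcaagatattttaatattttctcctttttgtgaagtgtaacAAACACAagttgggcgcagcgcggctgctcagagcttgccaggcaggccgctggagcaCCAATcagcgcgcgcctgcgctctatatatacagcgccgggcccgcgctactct

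H3f3b: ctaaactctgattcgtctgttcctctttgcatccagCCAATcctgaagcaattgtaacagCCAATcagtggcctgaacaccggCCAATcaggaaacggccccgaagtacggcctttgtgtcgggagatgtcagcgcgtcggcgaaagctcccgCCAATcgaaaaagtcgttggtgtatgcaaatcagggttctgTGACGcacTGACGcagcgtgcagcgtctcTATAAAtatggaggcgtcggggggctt

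H3f3a: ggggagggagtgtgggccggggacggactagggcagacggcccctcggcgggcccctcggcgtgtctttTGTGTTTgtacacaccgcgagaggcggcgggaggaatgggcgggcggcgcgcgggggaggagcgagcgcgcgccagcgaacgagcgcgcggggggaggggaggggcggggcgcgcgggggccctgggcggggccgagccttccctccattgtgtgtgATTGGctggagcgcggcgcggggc

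Over the table's 300-base windows (250 before and 50 after the start), H3f3b has 4 CCAAT, 1 TATAAA and 2 TGACG, and H3f3a has 1 CCAAT and 1 AAACACA on the opposite strand. H1f2 has 1 CCAAT and 1 AAACACA. Of all 32851 windows, CCAAT is in 37.4%, TATAAA in 13.6%, AAACACA in 7.18% and TGACG in 20.8%. Among the 50 windows of core genes, 42 hold CCAAT, 26 TATAAA, 2 AAACACA and 25 TGACG. Among the 9 of linker genes the numbers are 7, 4, 5 and 1, and among the 13 of variants 9, 3, 1 and 3. The 72 windows cover 71 of the 80 members, since H2bc6 has 2, and a match is a description of letters.

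Levels are given in CPM, expected counts scaled to library size, as mean ± SD over 3 libraries. Variants supplied most histone reads. Over Ctrl, TGFb and SIS3_TGFb their summed level was 1111 ± 40.2, 1117 ± 10.2 and 1353 ± 17.1 CPM. Linker genes summed to 124 ± 2.08, 133 ± 8.42 and 297 ± 7.86 CPM in the same order. Core genes, the largest class by number, summed to 72.7 ± 1.34, 72.7 ± 2.77 and 106 ± 4.40 CPM. In each class the 3 SIS3_TGFb libraries lay above all 6 others, while Ctrl and TGFb sums were close in the means. The SIS3_TGFb mean was 2.24 times the TGFb mean for linker genes, 1.46 times for core genes and 1.21 times for variants. These sums are descriptions with no test. In bulk libraries, fewer cells of a type and less RNA per cell cannot be told apart.

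**Figure D1:**
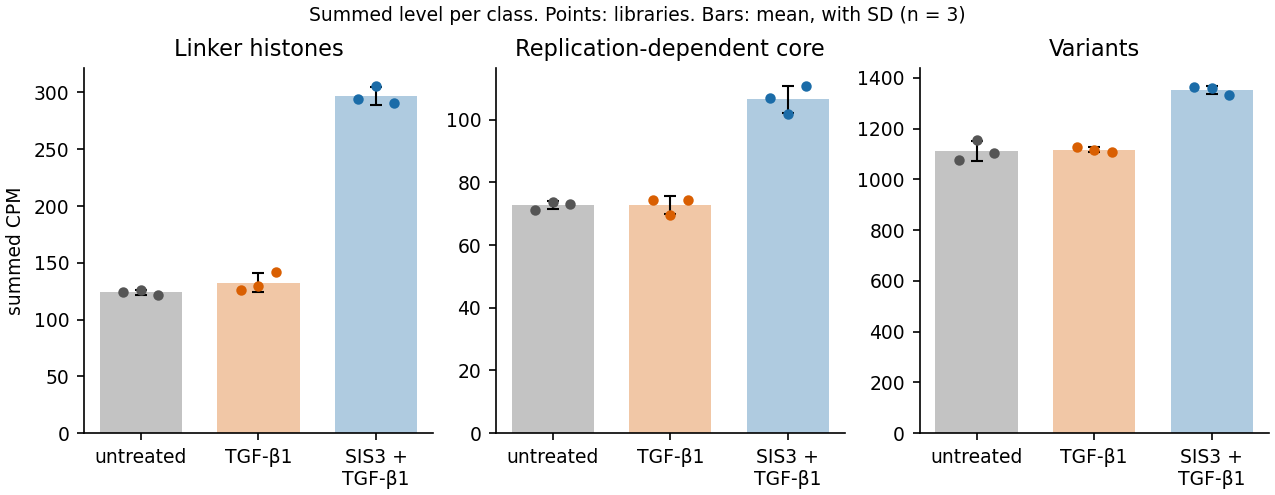
Summed CPM (vertical axis, from 0) of linker, replication-dependent core and variant histone genes in untreated, TGF-β1 and SIS3 + TGF-β1 cells; points are libraries, bars the mean with SD (n = 3). The SIS3 + TGF-β1 bars stand at 297, 106 and 1353 CPM, above the other groups in each panel.

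As shares of all histone counts, linker genes went from 9.47% in Ctrl and 10.0% in TGFb to 16.9% in SIS3_TGFb, and variants from 84.9% and 84.4% to 77.0%. Core genes held 5.56%, 5.50% and 6.06%. A few genes carried each class. H1f2 gave 62.7% and H1f0 36% of linker counts over the 9 libraries, and H2bc4, H2ac23 and H2ac18 gave 36.9%, 22.6% and 11.5% of core counts. Without H3f3b the variant sum was 835 ± 32.8, 827 ± 4.24 and 845 ± 10.7 CPM, so the higher variant sum in SIS3_TGFb rested on that gene. Without H2bc4 and H2ac23 the core sum was 28.7 ± 2.09, 30.9 ± 2.07 and 42.5 ± 1.43 CPM and was still higher in SIS3_TGFb.

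Genes can be ranked only per length, here as CPM per kilobase of the longest GENCODE transcript in Ctrl. H2az1, which encodes H2A.Z, led with 203 ± 6.66. H3f3b (110 ± 3.16) and H3f3a (105 ± 4.96), which both encode H3.3, followed and lay within 2 SDs of each other. The linker gene H1f2 (56.3 ± 0.61) and Macroh2a1 (53.6 ± 1.18), which encodes the large variant macroH2A, came next. The highest core gene was H2ac23, an H2A gene, at 32.2 ± 5.99, close to H2bc4, an H2B gene, at 24.7 ± 0.495, and to H2ax (24.3 ± 2.21). H2ac18, another H2A gene, stood at 14.4 ± 0.637, and no other tested core gene was above 2.72.

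Of the 80 members, 30 passed the filter on low counts and were tested: 4 linker, 16 core, 9 variant genes and the pseudogene H2af-ps2. The 38 untested core genes had 0 to 13.2 counts in any library, the 5 untested linker genes (H1f1, H1f4, H1f5, H1f6, H1f8) at most 11, and the 6 untested variants (H2bu2, Macroh2a3, H3f4, H2al1m, H2al1k, H2al1b) at most 15. H2bu1-ps, the other pseudogene by symbol, had at most 3. RefSeq also lists Macroh2a3, a variant by symbol here, as a transcribed pseudogene. Summed, the untested core genes gave 4.82 ± 0.590, 3.96 ± 0.246 and 5.91 ± 0.181 CPM in Ctrl, TGFb and SIS3_TGFb. Their lowest SIS3_TGFb library (5.75 CPM) was above the highest of the others (5.32 CPM, in Ctrl). Without the SIS3_TGFb libraries, 24 of the 30 tested genes would still have passed the filter. The other 6 (H2ac7, H4c12, H2bc8, H1f3, H1f10 and Macroh2a2) passed only through them, so a rise there was favoured by the filter.

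**Figure D2:**
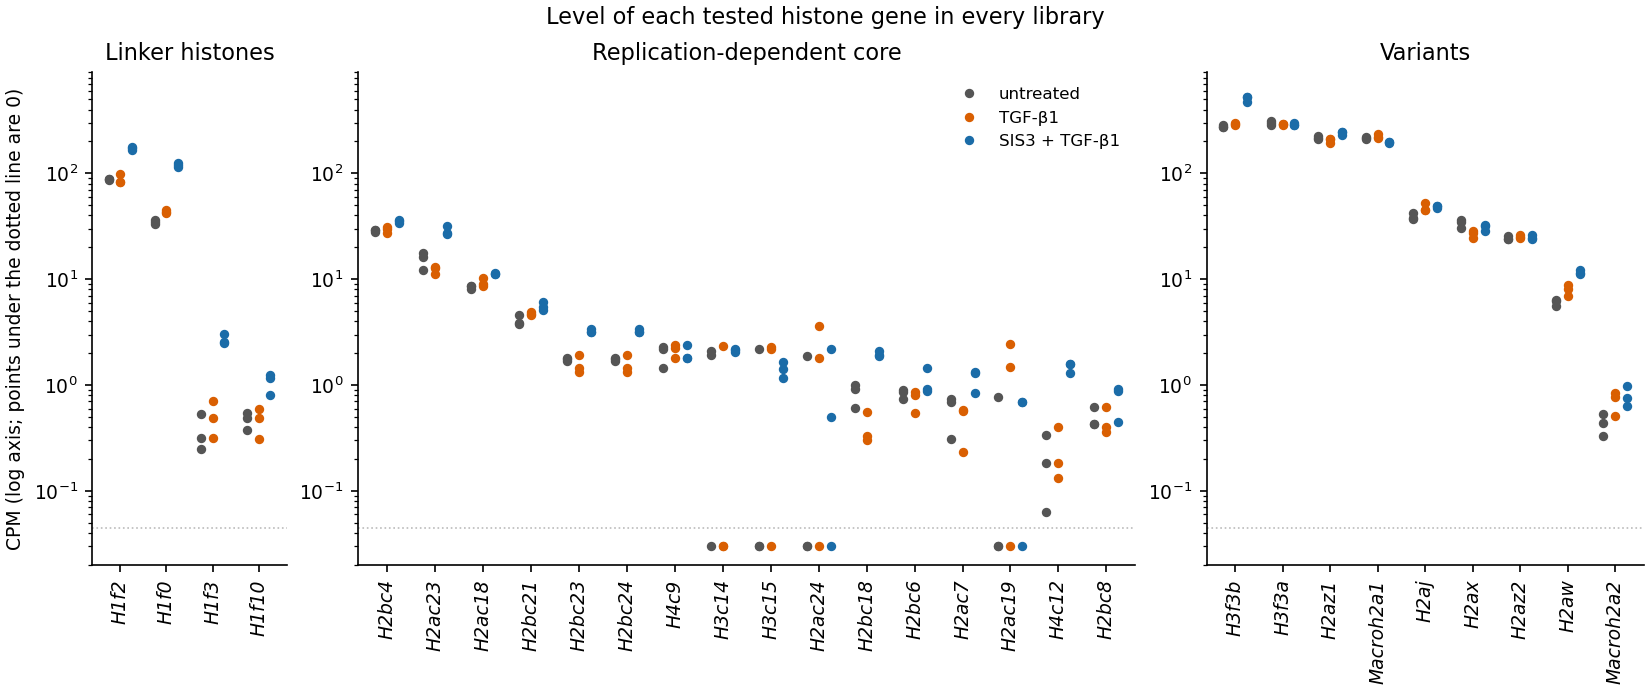
CPM of the tested linker, core and variant genes in every library (log axis; points under the dotted line are 0); the pseudogene is left out. The SIS3 + TGF-β1 points lie highest for H1f2, H1f0, H1f3 and H3f3b. Within the untreated and TGF-β1 groups, H3c14, H3c15, H2ac24 and H2ac19 jump between 0 and higher values.

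The whole experiment gave many changes, which sets the background. Library totals ran from 15714973 to 16718673 expected counts, and 14193 to 14862 genes were above 0. Among 12212 genes tested by edgeR's quasi-likelihood test with Benjamini-Hochberg adjustment at 0.05, 2186 rose and 2004 fell in TGFb versus Ctrl, 2585 rose and 2519 fell in SIS3_TGFb versus TGFb, and 3542 rose and 3043 fell in SIS3_TGFb versus Ctrl. These splits follow the scaling. With upper-quartile factors 1807 rose and 2568 fell in the TGF-β1 step, and without scaling factors 3690 rose and 1501 fell in SIS3_TGFb versus TGFb. NK markers (12 genes) summed to 18284 to 19391 CPM in Ctrl, 13756 to 15112 in TGFb and 15087 to 15338 in SIS3_TGFb. Markers of macrophages and monocytes (8 genes) spanned 945 to 1252, 680 to 1064 and 764 to 1284 CPM, and those of B cells (5 genes) 0.852 to 1.20, 0.666 to 1.72 and 0.406 to 0.413 CPM. T cell markers (6 genes) spanned 1429 to 1559 CPM in Ctrl, 1535 to 1681 in TGFb and 1290 to 1371 in SIS3_TGFb, and neutrophil markers (6 genes) 258 to 298, 234 to 248 and 220 to 233 CPM. Both lists, like that of B cells, were lowest in SIS3_TGFb with no overlap. In the same group order, dendritic cell markers (8 genes) spanned 571 to 805, 460 to 730 and 518 to 903 CPM, mast cell and basophil markers (7 genes) 486 to 514, 477 to 526 and 449 to 522 CPM, and erythroid and megakaryocyte markers (7 genes) 36.1 to 46.3, 7.66 to 38.0 and 29.2 to 32.4 CPM. The T cell marker Trac, the neutrophil marker Ltf and the mast cell marker Mcpt4 were not analysed here. The part of other cell types in the histone results was not tested. TGFb replicate 3 had the lowest total and the fewest genes above 0. Without it, 3 histone genes rose and 1 fell in TGFb versus Ctrl, beside 2088 rising and 1886 falling among all genes. In SIS3_TGFb versus TGFb 17 rose and 1 fell, beside 2350 and 2347. Genes that passed the filter only through the SIS3_TGFb libraries were not left out of these counts.

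The first comparison asks what TGF-β1 did on its own, and most histone genes did not pass the test. Of the 30 tested, 3 rose (H1f0, H2aj, H2aw) and 2 fell (H2ax, H2bc18), against a background of 17.9% of all genes rising and 16.4% falling. The median log2 change of the members was 0.042, and that of all genes -0.0036. Groups did not overlap for 8 of the 30, against 45% of all genes. The members' share of calls was 16.7%, against 34.3% of all genes, and none rose by 1 or more on the log2 scale, against 2.97%.

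H1f0 encodes the linker variant H1.0, known for accumulating in differentiated and resting cells. It stood at 34.8, 36.2 and 33.3 CPM in the Ctrl libraries and at 42.3, 45.2 and 42.9 CPM in the TGFb libraries. All TGFb libraries were above all Ctrl libraries. The rise was 0.32 ± 0.052 on the log2 scale (± SE; edgeR adjusted p = 0.000141). H1f2, which encodes the somatic linker H1.2, stood at 87.8 ± 0.951 and 87.9 ± 8.43 CPM, with TGFb replicate 3 (97.6) above the other TGFb libraries (82.7 and 83.4). Its 95% interval of the log2 difference ran from -0.12 to 0.12.

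H2ax encodes H2A.X, the variant phosphorylated around DNA breaks. Its Ctrl libraries held 30.2, 36.0 and 34.9 CPM and its TGFb libraries 28.3, 27.5 and 24.6 CPM, with no overlap. It fell by 0.33 ± 0.078 on the log2 scale (edgeR adjusted p = 0.00352). H2aj, an H2A gene outside the large clusters, rose by 0.29 ± 0.069 on the same scale (edgeR adjusted p = 0.00392), from 36.6, 42.3 and 37.9 CPM to 44.8, 45.3 and 52.5 CPM. H2aw, an H2A gene on chromosome 11 that holds the stem-loop letters, went from 6.31, 6.16 and 5.60 CPM to 8.87, 6.95 and 8.12 CPM. That rise of 0.41 ± 0.121 (edgeR adjusted p = 0.0159) did not pass without Ctrl replicate 3 (adjusted p = 0.0661), without TGFb replicate 1 (0.0826) or with DESeq2 (0.0556).

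No core gene rose with TGF-β1, and only H2bc18, an H2B gene of the chromosome 3 cluster, fell. It had 16, 15 and 10 counts in Ctrl and 9, 5 and 5 in TGFb, so the groups did not overlap but the counts were few. The change was -1.07 ± 0.370 (edgeR adjusted p = 0.0346). The call ended with DESeq2 (0.108), in a fit of the 2 groups alone (0.0608), without the low-count filter (0.0513), and without Ctrl replicate 1 (0.114) or 2 (0.0941) or TGFb replicate 2 (0.122) or 3 (0.0915). H2ac23 stood at 12.2, 17.8 and 16.3 CPM in Ctrl and at 11.2, 13 and 12.9 CPM in TGFb, which overlap. Its change of -0.32 ± 0.125 did not pass (edgeR adjusted p = 0.0611), though it did with upper-quartile factors (0.0390), without the low-count filter (0.0269), and without Ctrl replicate 1 (0.00448) or SIS3_TGFb replicate 3 (0.0447). H2az1, at 217 ± 7.12 and 203 ± 10.1 CPM, changed by -0.10 ± 0.042 (edgeR adjusted p = 0.0952) and passed only with upper-quartile factors (0.0242) or without scaling factors (0.0370).

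The second comparison asks what SIS3 before TGF-β1 changed relative to TGF-β1 alone, and here 16 of the 30 tested genes rose and 1 fell, against 21.2% of all genes rising and 20.6% falling. Of the 24 that passed the filter without the SIS3_TGFb libraries, 12 rose, 1 fell and 11 did not pass. Among those 24, both linker genes (H1f0 and H1f2) rose, as did 6 of 13 core genes and 4 of 8 variants, and the variant Macroh2a1 fell. The rise reached at least 1 on the log2 scale for 9 of the 30 and for 5 of the 24, against 1.97% of all genes. H2bc23 and H2bc24, near copies with the same value in every library, are counted separately among these rises. The median log2 change was 0.41 over the 30 members and 0.012 over all genes. That median includes the members that passed the filter only through the SIS3_TGFb libraries, where the filter favoured a rise. Groups did not overlap for 19 of the 30, against 51.4% of all genes.

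**Figure D3:**
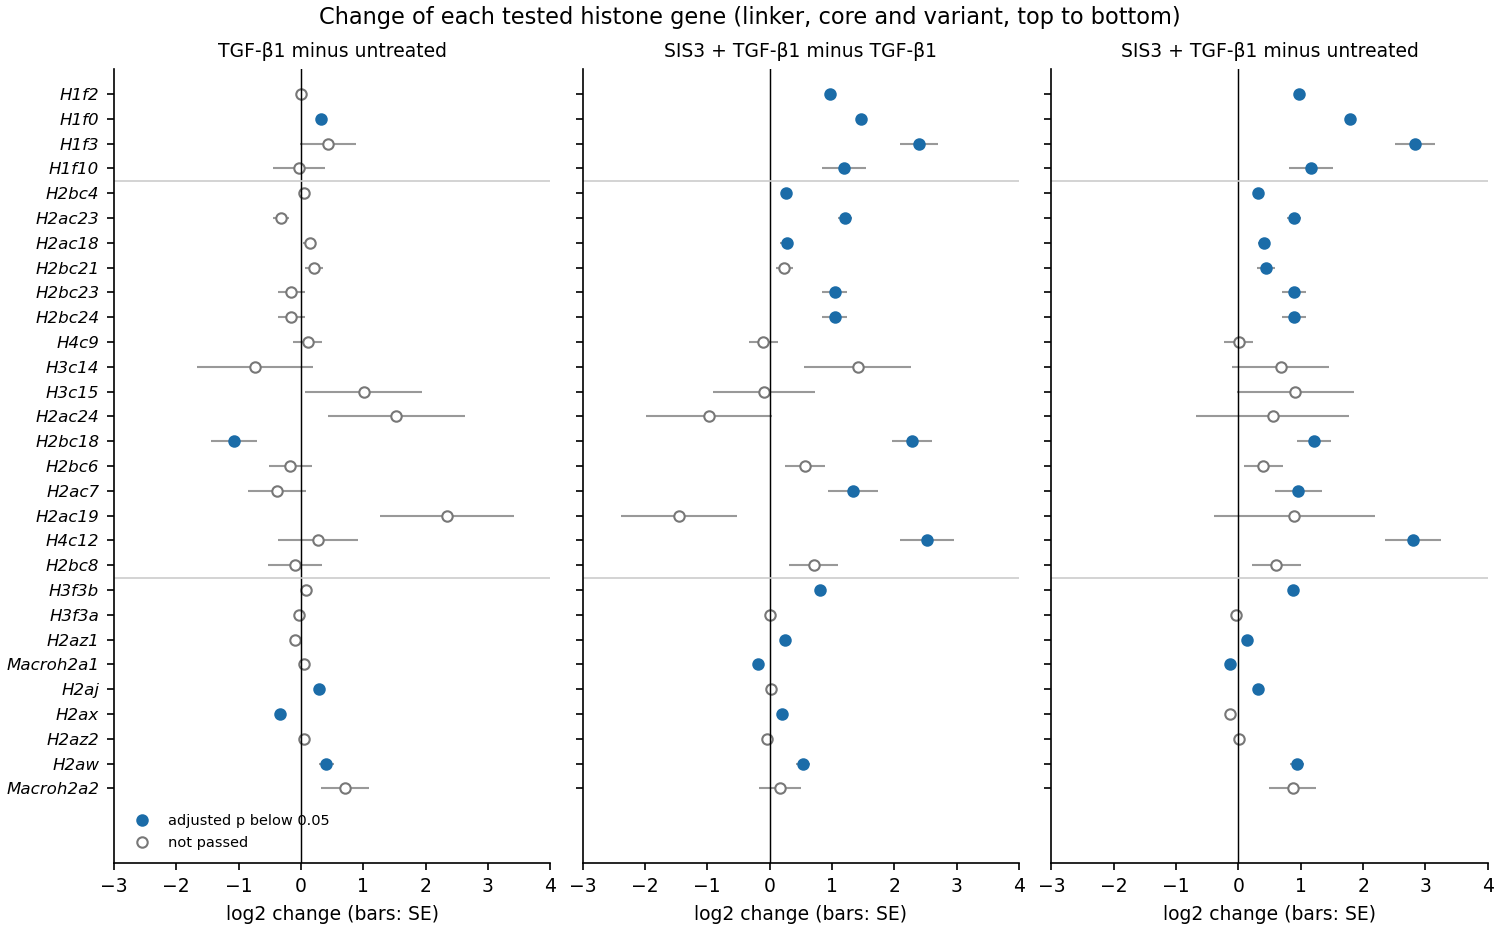
Log2 change (horizontal axis; bars are the SE) of the tested linker, core and variant genes, top to bottom, in the 3 comparisons; filled points passed the edgeR test at an adjusted p below 0.05. In the middle panel 16 genes rose and Macroh2a1 alone fell, beside 21.2% of all genes rising and 20.6% falling. Among the 16, H1f3, H1f10, H4c12 and H2ac7 passed the filter only through the SIS3 + TGF-β1 libraries. Their filled points, here and in the right panel, are not read as tests. Of the 24 genes that passed the filter without those libraries, 12 rose. The widest bars belong to H3c14, H3c15, H2ac24 and H2ac19.

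H1f0 showed the firmest rise of the linker genes. Its SIS3_TGFb libraries held 116, 124 and 121 CPM, against 42.3, 45.2 and 42.9 CPM with TGF-β1 alone. The log2 change was 1.47 ± 0.046 (2.77-fold, edgeR adjusted p = 4.44e-12). H1f2, with 174, 177 and 166 CPM in SIS3_TGFb, rose 1.96-fold over TGFb (log2 0.97 ± 0.053, edgeR adjusted p = 1.45e-09). The 2 genes thus rose by different amounts, and the ratio of H1f0 to H1f2 counts went from 0.396 ± 0.013 in Ctrl to 0.498 ± 0.053 in TGFb and 0.698 ± 0.032 in SIS3_TGFb. The libraries of the 3 groups did not overlap in that ratio.

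The other tested linker genes were scarce. H1f3, which encodes H1.3, had 4.99, 4 and 8.79 counts in Ctrl, 8, 5.21 and 10.7 in TGFb and 51.4, 43.6 and 42.8 in SIS3_TGFb. The fitted ratio to TGFb was 5.26-fold (log2 2.40 ± 0.309), and every SIS3_TGFb library was above every other library. H1f10, which encodes the divergent linker H1.10, had 5, 8 and 9 counts in TGFb and 21, 20 and 14 in SIS3_TGFb. Its fitted log2 difference was 1.20 ± 0.352. Both genes passed the filter only through the SIS3_TGFb libraries, so their differences are given as values, with no test. Untested H1f4 had 2 to 4 counts in the Ctrl and TGFb libraries and 6, 11 and 7 in SIS3_TGFb.

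The pair that encodes H3.3 split in this comparison. H3f3b stood at 298, 289 and 285 CPM in TGFb and at 525, 522 and 475 CPM in SIS3_TGFb, and rose 1.75-fold (log2 0.80 ± 0.042, edgeR adjusted p = 9.17e-10). H3f3a stood at 295, 295 and 285 CPM in TGFb and at 289, 288 and 299 CPM in SIS3_TGFb, so its groups overlapped. Its 95% interval of the log2 difference ran from -0.08 to 0.08 (edgeR adjusted p = 0.989), which leaves out a change of the size seen in H3f3b. The ratio of H3f3b to H3f3a counts was 0.926 ± 0.025 in Ctrl, 0.997 ± 0.015 in TGFb and 1.74 ± 0.130 in SIS3_TGFb. Every SIS3_TGFb library (1.59 to 1.82) lay above every other library.

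**Figure D4:**
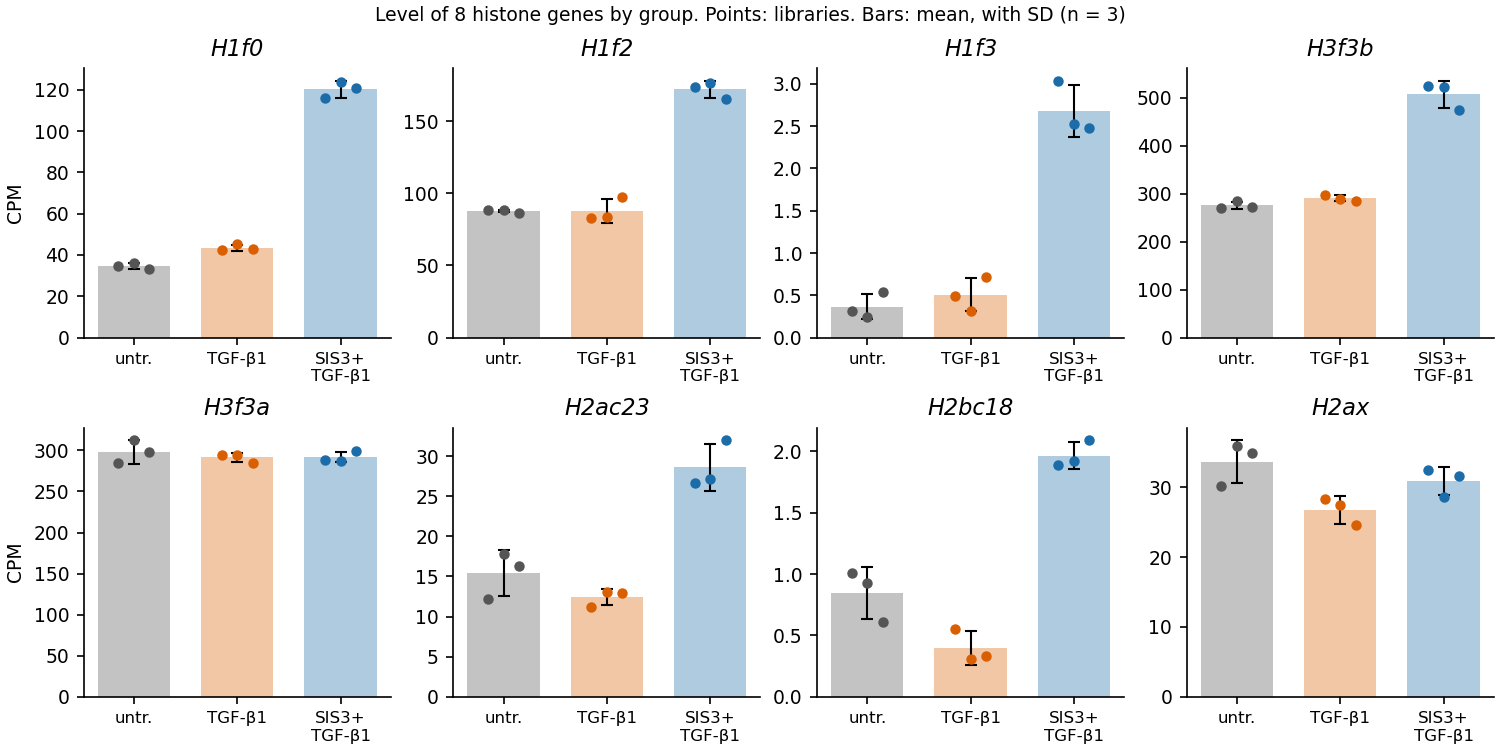
CPM (vertical axes from 0, with their own scales) of 8 histone genes in untreated (untr.), TGF-β1 and SIS3 + TGF-β1 cells; points are libraries and bars the mean with SD (n = 3). H1f0, H1f2, H1f3 and H3f3b are highest in the SIS3 + TGF-β1 libraries, H3f3a stays between 284 and 312 CPM in all 9, and H2ax and H2bc18 are lowest with TGF-β1 alone.

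Other variants moved less. H2az1 rose from 192, 209 and 209 CPM to 232, 244 and 244 CPM (log2 0.24 ± 0.042, edgeR adjusted p = 0.000278). Its relative H2az2, which encodes a second H2A.Z, stood at 25.3 ± 0.923 and 24.6 ± 1.16 CPM, with a 95% interval of the log2 difference from -0.17 to 0.10. H2aw rose by 0.54 ± 0.110 on the log2 scale, to 11.2, 11.4 and 12.2 CPM (edgeR adjusted p = 0.00107). Macroh2a1 went the other way, from 234, 219 and 215 CPM to 198, 192 and 197 CPM, with no overlap. It fell by 0.18 ± 0.038 on the log2 scale (edgeR adjusted p = 0.00113), and without scaling factors the fall did not pass (-0.10, adjusted p = 0.0589). H2ax, at 28.3, 27.5 and 24.6 CPM in TGFb and 32.4, 28.6 and 31.6 CPM in SIS3_TGFb, was at the threshold (log2 0.20 ± 0.078, edgeR adjusted p = 0.0491). That call ended with DESeq2 (0.111), with RLE factors (0.0594), and without Ctrl replicate 3 (0.0580), TGFb replicate 2 (0.0736) or 3 (0.173), or SIS3_TGFb replicate 1 (0.166) or 3 (0.113). H2aj (log2 0.03 ± 0.067) and the scarce Macroh2a2 (0.16 ± 0.341) did not pass.

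Core genes rose unevenly. H2ac23 had 26.7, 27.2 and 32.0 CPM in SIS3_TGFb against 11.2, 13 and 12.9 CPM in TGFb, a 2.31-fold rise (log2 1.21 ± 0.115, edgeR adjusted p = 7.88e-07). The most abundant core gene, H2bc4, rose only 1.20-fold, from 29.8, 27.2 and 31.3 CPM to 36.5, 33.8 and 35.7 CPM (log2 0.27 ± 0.061, edgeR adjusted p = 0.00254). H2bc18 went from 9, 5 and 5 counts to 32, 33 and 36 (4.86-fold, log2 2.28 ± 0.316, edgeR adjusted p = 3.47e-05). These 3 genes had no overlap between the groups. H4c12, an H4 gene, had 6.53, 3 and 2 counts in TGFb and 21.8, 27.0 and 26.9 in SIS3_TGFb (log2 2.52 ± 0.431). Another H4 gene, H4c9, stood at 2.13 ± 0.300 and 1.99 ± 0.325 CPM and did not pass (edgeR adjusted p = 0.751). H2bc21, an H2B gene with AATAAA in the last 60 annotated bases, stood at 4.72 ± 0.136 and 5.55 ± 0.494 CPM (edgeR adjusted p = 0.192). H2ac7, an H2A gene, had 3.78, 9.43 and 8.45 counts in TGFb and 22.5, 22.4 and 14.5 in SIS3_TGFb. H4c12 and H2ac7 passed the filter only through the SIS3_TGFb libraries, and no test is given for them.

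By histone type, core H2A genes (15) summed to 26.8 ± 1.58, 26.2 ± 0.533 and 43.6 ± 4.54 CPM in Ctrl, TGFb and SIS3_TGFb. Core H2B genes (15) summed to 39.1 ± 0.466, 39.5 ± 2.46 and 52.0 ± 2.48 CPM. The H3 genes (12) gave 3.67 ± 0.161, 3.40 ± 0.117 and 5.61 ± 0.438 CPM, and the H4 genes (12) 3.18 ± 0.237, 3.66 ± 0.310 and 5.16 ± 0.120 CPM. In every type the SIS3_TGFb libraries were above all others. Of the 54 core genes, 45 lie on chromosome 13 and 9 on chromosome 3. Chromosome 13 also holds 6 of the 9 linker genes and 1 of the 15 variants.

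Members with and without the stem-loop letters rose in SIS3_TGFb versus TGFb. Of the 11 members with the letters that passed the filter without the SIS3_TGFb libraries, 5 rose, none fell and 6 did not pass. Of the 12 without the letters, leaving out the pseudogene, 7 rose, 1 fell and 4 did not pass. H2bc23 and H2bc24, which have the same value in every library, are counted separately among the 7. Among all genes 21.2% rose and 20.6% fell, and whether the members with and without the letters differ was not tested. The core genes that end within 100 bases of the loop summed to 27.3 ± 1.12, 27.0 ± 1.05 and 44.4 ± 3.86 CPM over the 3 groups, and those that run further to 7.0 ± 0.248, 6.92 ± 0.362 and 9.73 ± 0.851 CPM. Core genes without the letters summed to 38.4 ± 0.635, 38.8 ± 2.33 and 52.3 ± 1.95 CPM. The sums were thus higher in SIS3_TGFb with and without an annotated loop. RNAs that lack a poly-A tail were read as a sign of carry-over, and 2 of the 6 listed were tested. Rn7sk stood at 6.09, 4.33 and 0.999 CPM in TGFb and at 1.77, 2.09 and 0.755 CPM in SIS3_TGFb (log2 -1.32 ± 0.476, edgeR adjusted p = 0.0364), and Rn7s1 changed by -0.80 ± 0.366 (edgeR adjusted p = 0.0941). The Rn7sk groups overlapped, since TGFb replicate 3 (0.999) lay between the SIS3_TGFb values. The part of carry-over in the histone values was not tested.

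Many core genes are near copies, so their single values are uncertain. H2bc23 and H2bc24 share 94.8% of the 100-base windows of the smaller gene and have the same value in every library. Each stood at 1.93, 1.31 and 1.43 CPM in TGFb and 3.42, 3.14 and 3.18 CPM in SIS3_TGFb (log2 1.04 ± 0.197, edgeR adjusted p = 0.000568), so the pair is a single measurement. The counts of single genes that rose in SIS3_TGFb, against TGFb or Ctrl, hold both. H3c14 had 33.0, 30.9 and 0 counts in Ctrl and 37.8, 0 and 0 in TGFb. Its near copy H3c15 had 0, 0 and 36.0 counts in Ctrl and 0, 37.6 and 33.0 in TGFb, at its highest where H3c14 was at 0. Neither gene passed in any comparison in the fit of all 9 libraries, but without TGFb replicate 1 H3c14 passed both in TGFb versus Ctrl (adjusted p = 0.0129) and in SIS3_TGFb versus TGFb (0.00324). Summed with H3c13, the family had 33.0, 34.0 and 36.0 counts in Ctrl, 39.0, 39.0 and 33.0 in TGFb and 64.0, 64.0 and 59.0 in SIS3_TGFb. The sum was even within groups and rose by 0.64 ± 0.166 on the log2 scale over TGFb (edgeR adjusted p = 0.00561). H3c13, H3c14 and H3c15 also share windows with Gm20634, a gene outside the members, as do H2ac18 and H2ac19. In H3c14, 100% of the windows lie in another gene. The sums hold members only, so reads shared with genes outside them stay uncertain.

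**Figure D5:**
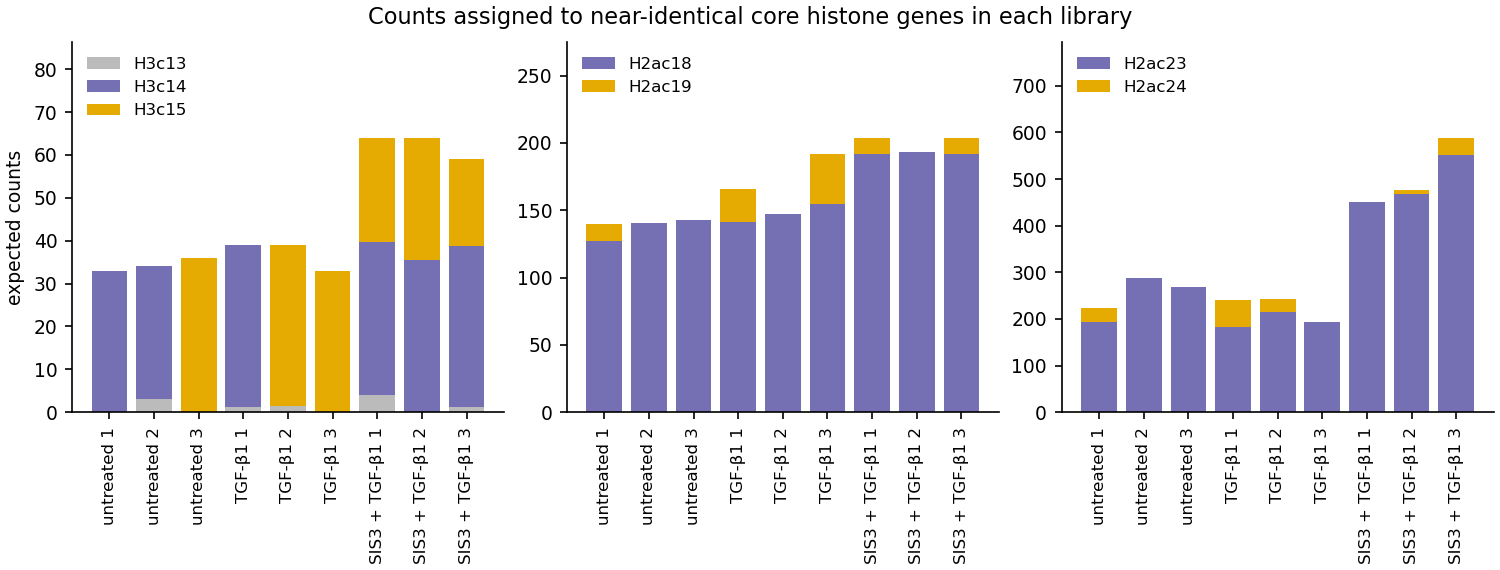
Expected counts (vertical axes from 0) assigned to near-identical core genes in each of the 9 libraries, stacked by gene: H3c13, H3c14 and H3c15 (left), H2ac18 and H2ac19 (middle), H2ac23 and H2ac24 (right). H3c14 and H3c15 trade places between libraries of a group, while their sum is 33 to 39 in the untreated and TGF-β1 libraries and 59 to 64 with SIS3 + TGF-β1.

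H2ac18 and H2ac19 share every window of the shorter gene. H2ac18 alone rose from 8.70, 8.96 and 10.3 CPM to 11.3, 11.2 and 11.1 CPM (log2 0.27 ± 0.098, edgeR adjusted p = 0.0371). Summed with H2ac19 the change was 0.14 ± 0.115 (edgeR adjusted p = 0.358), and the call for H2ac18 alone also ended with DESeq2 (0.165), in a fit of the 2 groups (0.0514), without the low-count filter (0.0586) and without any single TGFb or SIS3_TGFb library except TGFb replicate 3 (0.0665 to 0.131). The H2A family of 10 genes with H2ac23, H2ac24 and H2ac7 rose by 1.03 ± 0.10 (edgeR adjusted p = 9.19e-07). H2bc12, H2bc23 and H2bc24 together rose by 0.97 ± 0.159 (edgeR adjusted p = 0.000166), the H3 family of H3c10, H3c11, H3c2 and H3c4 by 0.91 ± 0.300 (0.0237), and the H4 family of H4c1, H4c11, H4c12, H4c2 and H4c8 by 1.73 ± 0.235 (2.82e-05). With near copies summed, 26 histone rows were tested, of which 15 rose and 1 fell. In the fit of single genes 21.2% of all genes rose and 20.6% fell. The 26 include H1f3, H1f10, H2bc8 and Macroh2a2, which passed the filter only through the SIS3_TGFb libraries. As single genes, so did H2ac7 in the H2A family and H4c12 in the H4 family. H4c12 gave 21.76, 26.95 and 26.94 of the 39.9, 47.99 and 45 counts of its family in SIS3_TGFb. The H4 family sum was above the minimum count of 10 in every Ctrl and TGFb library. Its adjusted p is for the sum and is not a test of H4c12.

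The third comparison sets SIS3 with TGF-β1 against untreated cells. It shares its libraries with the other 2, so its values are given beside theirs and not as a separate finding. Of the 30 tested genes 17 rose and 1 fell (Macroh2a1), against 29% of all genes rising and 24.9% falling, and of the 24 that passed the filter without the SIS3_TGFb libraries 13 rose and 1 fell. Rises of at least 1 on the log2 scale numbered 5 of the 30 and 2 of the 24, against 5.44% of all genes, and groups did not overlap for 19 of 30 (61% of all genes). The median log2 change was 0.78 over the 30 members, with those favoured by the filter included, and 0.020 over all genes. H1f0 was 3.46-fold higher than in Ctrl (log2 1.79 ± 0.048, edgeR adjusted p = 1.36e-13), against 1.47 over TGFb, since TGF-β1 alone had raised it by 0.32. H1f2 was 0.97 ± 0.053 higher on the log2 scale in both contrasts. H3f3b was 0.88 ± 0.042 higher (edgeR adjusted p = 7.48e-11), and H3f3a again had an interval near 0, from -0.11 to 0.05.

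H2aw and H2aj were higher than in Ctrl both with TGF-β1 alone and with SIS3 before it. H2aw went from 6.02 ± 0.375 to 7.98 ± 0.963 and 11.6 ± 0.518 CPM over Ctrl, TGFb and SIS3_TGFb, and H2aj from 38.9 ± 3.00 to 47.5 ± 4.33 and 48.4 ± 1.42 CPM. H2ax and H2bc18 passed in opposite directions in the TGF-β1 and SIS3 steps, which share the TGFb libraries. H2ax ended at 30.9 ± 2.02 CPM against 33.7 ± 3.06 CPM in Ctrl (edgeR adjusted p = 0.172), and H2bc18 at 1.97 ± 0.108 CPM against 0.847 ± 0.211 CPM (log2 1.21 ± 0.271, edgeR adjusted p = 0.00138). H2ac23 was also higher than in Ctrl (log2 0.89 ± 0.111, edgeR adjusted p = 5.45e-06). H2bc21 passed only here (log2 0.44 ± 0.140, edgeR adjusted p = 0.0141), and not with DESeq2 (0.0768), or without Ctrl replicate 1 (0.0521) or 2 (0.0506), or SIS3_TGFb replicate 1 (0.0667).

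Genes that transcribe, process and place histones are given as counts beside the shares of all genes, which were 17.9% rising and 16.4% falling with TGF-β1, and 21.2% rising and 20.6% falling in SIS3_TGFb versus TGFb. Of 13 genes of histone gene transcription, 5 rose and 0 fell with TGF-β1, and 0 rose and 8 fell in SIS3_TGFb versus TGFb. These 2 steps share the TGFb libraries. Against Ctrl, 1 of the 13 was higher and 3 were lower in SIS3_TGFb, beside 29% and 24.9% of all genes. The lists overlap, and Npat and Hira are each counted in another list as well. The 13 include Npat, the coactivator of replication-dependent histone genes, at 39.8 ± 1.76, 47.4 ± 1.55 and 42.9 ± 1.83 CPM (log2 0.25 ± 0.054, edgeR adjusted p = 0.00164, then -0.14 ± 0.053, 0.0427). E2f3, a cell cycle transcription factor, rose by 0.76 ± 0.055 and then fell by 0.30 ± 0.052. Of 15 genes of stem-loop end processing, 3 rose and 3 fell with TGF-β1, and 3 rose and 5 fell in SIS3_TGFb versus TGFb. Slbp, which binds the stem-loop, fell by 0.18 ± 0.050 in that comparison (edgeR adjusted p = 0.00952), and Srrt, which works with the cap-binding complex, fell by 0.62 ± 0.041 (1.72e-08).

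Of 30 histone chaperone and deposition genes, 4 rose and 10 fell with TGF-β1, and 6 rose and 10 fell in SIS3_TGFb versus TGFb. Atrx, which with Daxx places H3.3 at repeats and telomeres, stood at 229 ± 7.31 CPM in Ctrl, 202 ± 2.79 in TGFb and 140 ± 4.07 in SIS3_TGFb. It fell by 0.52 ± 0.037 on the log2 scale in SIS3_TGFb versus TGFb (edgeR adjusted p = 3.30e-08), where H3f3b rose. Asf1a, a chaperone that hands H3 and H4 to the assembly factors, rose by 0.68 ± 0.093 (3.39e-05). Anp32e, which removes H2A.Z, fell by 0.46 ± 0.061 with TGF-β1 (1.69e-05).

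Of 23 S phase genes, 0 rose and 17 fell with TGF-β1, and 8 rose and 5 fell in SIS3_TGFb versus TGFb, beside the same shares of all genes. Pcna, the replication clamp, stood at 146 ± 5.72 CPM in Ctrl, 130 ± 2.69 in TGFb and 96.3 ± 1.43 in SIS3_TGFb, while Dut, which clears dUTP, rose by 0.67 ± 0.053 in SIS3_TGFb versus TGFb (edgeR adjusted p = 1.01e-07). Against Ctrl, 2 of the 23 were higher and 13 lower in SIS3_TGFb, beside 29% and 24.9% of all genes. The proliferation marker Mki67 fell by 0.31 ± 0.060 with TGF-β1 (edgeR adjusted p = 0.000733) and rose by 0.28 ± 0.060 in SIS3_TGFb versus TGFb (0.00179). Cenpa, the centromeric H3 variant outside the symbol rule, stood at 50.9 ± 0.633, 31.6 ± 2.76 and 42.8 ± 0.385 CPM, a fall of 0.68 ± 0.059 and then a rise of 0.44 ± 0.059. The part of cell cycle position in the histone values was not tested.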

How the data were processed

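RNA from 9 libraries of cultured mouse NK cells (3 groups of 3) was read as 100 bp pairs after poly-A selection. The authors deposited 1 table of expected counts per gene, a unit read from the values, of which 10.2% to 11.1% per library are not whole. Per the submitters' processing notes the builds were GRCm38 and mm10, and RSEM, Bowtie2, HISAT2, StringTie, Cufflinks and DESeq2 were among the tools. Versions, roles, annotation and strand use were not given in the sources used here, so antisense reads cannot be told apart. Expected counts were rounded. Genes were kept by filterByExpr (minimum count 10, minimum total 15) and fitted with edgeR 4.0.16 in R 4.3.3 (TMM scaling, glmQLFit and glmQLFTest, all 9 libraries, 1 mean per group, two-sided, Benjamini-Hochberg over 12212 genes, adjusted p below 0.05). Each SE was obtained as the absolute log2 change over the root of F. The common biological coefficient of variation was 4.53%. CPM used unrounded counts and TMM-scaled totals. Fits were tested on simulated data.

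Members and lists were chosen with earlier results of these data known. Named members are the 8 most abundant tested genes per class and every gene past the test with a log2 change of at least 0.5. From each list up to 3 genes per comparison with the smallest p could be named, with Slbp, Npat, Cenpa and Mki67. Near copies share at least 50% of the 100-base windows of the smaller gene. Summing them was added after the data were seen. Of the 80 members, 77 matched GENCODE M21 and 80 the RefSeq table for GRCm38.p6. Alternatives were RLE, upper-quartile or no scaling factors, DESeq2 1.42.0, no filter or a minimum count of 50, a fit of 2 groups, a replicate block, and leaving out each library.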

Additional observations from a re-analysis of the deposited data

How the results depend on the processing

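The TGFb versus Ctrl count of changed histone genes was 5, and 3 with DESeq2. No call of a named histone gene was reversed in direction. Of the named genes' values under the alternatives, 1136 kept their side of the threshold, 50 lost the call and 10 gained it. These numbers do not speak to the sign of values that did not pass, some of which lie close to 0. Without scaling factors the linker sum in SIS3_TGFb was 307 CPM, and the variant sums were 1090 CPM in TGFb and 1398 CPM in SIS3_TGFb, each moved by more than 1 SD. Without 1 library the counts of changed histone genes ran from 4 to 7 in TGFb versus Ctrl, from 14 to 18 in SIS3_TGFb versus TGFb and from 17 to 20 in SIS3_TGFb versus Ctrl, and those of all genes from 3571 to 4297, from 4295 to 5080 and from 5875 to 6868. With the filter at 50 counts, 11 histone genes rose and 1 fell in SIS3_TGFb versus TGFb, beside 2498 rising and 2444 falling among all genes. Without scaling factors 63.8% of the calls in SIS3_TGFb versus Ctrl were rises, against 53.8%. Same-numbered libraries did not deviate together (correlations of -0.147 to 0.126, over 0.1 in 2 of 9 pairs), so the numbers do not pair them. With a replicate block 6, 15 and 17 histone genes and 3942, 4803 and 6346 genes changed in the 3 comparisons. In that fit the edgeR adjusted p in TGFb versus Ctrl was 0.0519 for H2bc18 and 0.0309 for H2ac23. In SIS3_TGFb versus TGFb it was 0.0797 for H2ax, and H2ac18 also did not pass. Depth limits the genes under about 10 counts per library, where 50 of the 80 members lie.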
